A study of Mus musculus with 12 samples.

Results

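The c-Jun N-terminal kinase (JNK) cascade and the GADD45 family were followed through the transcripts of 10 genes in mesenchymal stem/stromal cells (MSCs) with and without p38α. The genes were Mapk8 (JNK1) and Mapk9 (JNK2), their activating kinases Map2k4 (MKK4) and Map2k7 (MKK7), the upstream kinases Map3k5 (ASK1) and Map3k7 (TAK1), the TAK1 partner Tab1, and Gadd45a, Gadd45b and Gadd45g. Every probeset annotated to exactly 1 of these symbols was taken, which gave 20 of the 45037 probesets tested and 9 of the 17097 genes named by such probesets. Map2k7 had no probeset in the annotation used here, so no value is given for it. The kinases and Tab1 had 17 probesets (6 genes) and the GADD45 genes had 3, which were 1450971_PM_at for Gadd45b, 1453851_PM_a_at for Gadd45g and 1449519_PM_at for Gadd45a.

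The data were 12 Affymetrix MG-430 PM expression arrays, with 3 arrays of p38α∆ MSCs treated with TGF-β (p38α∆+TGF-β), 2 of untreated p38α∆ MSCs, 3 of WT MSCs treated with TGF-β (WT+TGF-β) and 4 of untreated WT MSCs. All groups were immortalized bone marrow MSCs, labelled as of the FVB/NJ strain, that carried Mapk14 lox/lox, in which the p38α gene is flanked by recombination sites, and a Cre recombinase that acts once 4-hydroxytamoxifen (4-OHT) is added. The p38α∆ cells had been given 4-OHT and the WT cells vehicle, so the WT cells are floxed cells without recombination rather than cells of an unmodified mouse. TGF-β was given at 5 ng/ml for 20 h in medium with 0.5% FBS. Whether the immortalized cells were 1 clone, and whether arrays of a group came from separate cultures, is not given in the sources used here, so p-values measure the spread between these arrays, which may be technical. The arrays bear numbers (1, 2 and 4 in p38α∆+TGF-β, 1 and 3 in p38α∆, 1, 3 and 4 in WT+TGF-β, and 1, 3, 4 and 4b in WT), and what a number stands for is not given either.

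JNK signaling runs through 3 tiers of kinases. MAP3Ks such as ASK1, which is released from thioredoxin under oxidative stress, and TAK1, which is activated downstream of TGF-β and interleukin-1 receptors together with TAB proteins, phosphorylate MKK4 and MKK7, and these phosphorylate the JNKs, which in turn act on c-Jun and other substrates. The cascade is switched by phosphorylation, and expression arrays measure the amounts of the transcripts and nothing of the kinases' activity. GADD45 proteins are small, stress-inducible nuclear proteins without catalytic activity that bind PCNA, p21 and the CDK1-cyclin B1 complex, and that bind and activate MAP3K4, a MAP3K upstream of both p38 and JNK. Gadd45b is a known transcriptional target of TGF-β and Smad proteins in other cells, and GADD45β is also known to bind and inhibit MKK7.

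Mapk14 had 6 probesets, and none passed between p38α∆ and WT arrays (lowest adjusted p = 0.601 in limma with TGF-β and 0.987 without). Where they lie relative to the deleted exon is not known here, so they do not check the labels, and the groups are named as labelled. Of the markers, the MSC genes Pdgfrb (8.58 to 9.63) and Itgb1 (10.8 to 11.5) had high log2 values on all 12 arrays, while Thy1, another MSC marker, was low (3.14 to 3.55). The MSC markers Nt5e (5.95 to 6.84), Pdgfra (5.09 to 6.34) and Eng (4.32 to 4.98) lay between. Eng overlapped the leukocyte marker Cd68 (4.25 to 4.69). The endothelial (3.16 to 4.10), leukocyte (2.67 to 4.69), epithelial (2.86 to 4.81) and adipocyte (2.95 to 3.34) markers lay low, and the osteoblast marker Ibsp (7.80 to 8.98) did not. The other osteoblast and chondrocyte markers were Bglap (6.03 to 7.88), Col2a1 (5.53 to 6.31) and Acan (4.16 to 4.94). The 4 arrays numbered 1, 1 in each group, stood apart from the other 8 on the main axis of variation (50.6% of the variance), and the TGF-β differences of the members are also given without them. Untreated p38α∆ MSCs then keep array 3 alone, so the p38α∆ differences of that fit rest on 1 untreated array.

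The upstream sequences of the 3 GADD45 genes are shown because Gadd45b and Gadd45g changed together with TGF-β and Gadd45a did not. Each run is the 250 bases before the annotated transcription start in RefSeq (GRCm38.p6), written 5′ to 3′ on the strand of the gene, with matches to 3 short motifs in capitals: TATAAA (the TATA box), CCAAT (the CCAAT box) and CAGAC (the Smad box), the last of which reads GTCTG where it lies on the other strand. The Gadd45b window is chr10:80929841-80930090 on the plus strand, the Gadd45g window is chr13:51846425-51846674 on the plus strand, and the Gadd45a window is chr6:67037408-67037657 on the minus strand.
Gadd45b: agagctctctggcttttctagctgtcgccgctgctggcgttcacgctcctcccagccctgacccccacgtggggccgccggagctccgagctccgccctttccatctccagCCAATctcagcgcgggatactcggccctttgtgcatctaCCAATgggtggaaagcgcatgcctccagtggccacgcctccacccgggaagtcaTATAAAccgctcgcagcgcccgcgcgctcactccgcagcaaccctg
Gadd45g: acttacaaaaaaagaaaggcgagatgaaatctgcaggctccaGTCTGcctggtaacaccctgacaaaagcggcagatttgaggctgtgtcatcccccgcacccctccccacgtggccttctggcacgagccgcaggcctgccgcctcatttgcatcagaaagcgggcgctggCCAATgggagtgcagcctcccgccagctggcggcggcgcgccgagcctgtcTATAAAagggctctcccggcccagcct
Gadd45a: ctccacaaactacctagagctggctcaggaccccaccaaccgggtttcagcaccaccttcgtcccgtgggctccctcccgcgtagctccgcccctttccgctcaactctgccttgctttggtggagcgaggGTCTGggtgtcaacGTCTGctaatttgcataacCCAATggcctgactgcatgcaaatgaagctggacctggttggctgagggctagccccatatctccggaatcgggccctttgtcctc

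TATAAA was found 46 to 41 bases before the start of Gadd45b and 27 to 22 bases before that of Gadd45g, and was not found in the Gadd45a window. The motif was present in 12.4% of all 32851 promoter windows of this length, searched on both strands. CCAAT, present in 33.8% of all windows, was found in all 3 genes, with 2 matches in Gadd45b. CAGAC, present in 42.2% of all windows, was found 2 times in Gadd45a and 1 time in Gadd45g, each time as GTCTG, and was not found in Gadd45b. The longer Smad palindrome GTCTAGAC (0.167% of all windows), the AP-1 motif TGAGTCA (4.46%) and the CRE motif TGACGTCA (1.55%) were found in none of the 3 windows. TATAAA and CCAAT were added to the search after the sequences had been read, and a match says only that the letters are present.

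Gadd45b and Gadd45g were higher in TGF-β-treated than in untreated MSCs of both genotypes, by 1.53 to 1.97 on the log2 scale, and Gadd45a did not pass in any comparison. These 2 were the only probesets of the 20 that passed at an adjusted p under 0.05 over all 45037 probesets. In p38α∆ MSCs 2 of 20 passed, both higher, where 5.21% of all probesets passed and 2.43% were higher. In WT MSCs it was again 2 of 20, both higher, where 6% of all probesets passed and 2.94% were higher.

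Gadd45b gave log2 values of 9.31, 9.85 and 9.64 in p38α∆+TGF-β MSCs, against 7.88 and 7.59 in untreated p38α∆ MSCs. Its values were 9.07, 9.49 and 9.33 in WT+TGF-β MSCs, against 7.98, 7.80, 7.69 and 7.58 in untreated WT MSCs. All 6 treated arrays lay above all 6 untreated arrays, with no overlap. The rise was 1.84 in p38α∆ MSCs (SE 0.18, 3.57-fold, 95% interval 2.72 to 4.68, adjusted p = 0.000132 in limma) and 1.53 in WT MSCs (SE 0.14, 2.89-fold, interval 2.35 to 3.56, adjusted p = 6.3e-05). Within arrays of 1 number, the treated array exceeded the untreated one by 1.44 in p38α∆ MSCs (number 1) and by 1.09, 1.69 and 1.69 in WT MSCs (numbers 1, 3 and 4). The group means stood in the order p38α∆+TGF-β (9.60 ± 0.27, SD, n = 3), WT+TGF-β (9.30 ± 0.21, SD, n = 3), WT (7.76 ± 0.17, SD, n = 4) and p38α∆ (7.73 ± 0.20, SD, n = 2). Arrays of the same treatment overlapped between the genotypes, and neither pair of neighbours passed.

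Gadd45g gave log2 values of 8.31, 9.71 and 9.49 in p38α∆+TGF-β MSCs, against 6.81 and 7.42 in untreated p38α∆ MSCs. Its values were 8.28, 9.51 and 9.06 in WT+TGF-β MSCs, against 6.94, 7.58, 7.56 and 7.33 in untreated WT MSCs. The treated and untreated arrays again did not overlap, and the lowest value of each group was that of its array numbered 1. The rise was 1.97 in p38α∆ MSCs (SE 0.28, 3.93-fold, 95% interval 2.56 to 6.03, adjusted p = 0.00179 in limma) and 1.64 in WT MSCs (SE 0.22, 3.11-fold, interval 2.24 to 4.32, adjusted p = 0.000859). Within number 1 the difference was 1.50 in p38α∆ MSCs, and within numbers 1, 3 and 4 it was 1.35, 1.92 and 1.62 in WT MSCs. The group means stood in the same order as for Gadd45b, at 9.17 ± 0.75 in p38α∆+TGF-β (SD, n = 3), 8.95 ± 0.62 in WT+TGF-β (SD, n = 3), 7.35 ± 0.30 in WT (SD, n = 4) and 7.12 ± 0.43 in p38α∆ MSCs (SD, n = 2), and arrays of the same treatment again overlapped. When the array numbers were left out of the fit, the WT rise missed the threshold (1.60, adjusted p = 0.0523) and the p38α∆ rise did not (2.05, adjusted p = 0.036).

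Gadd45a, the family member known as a target of p53 after DNA damage, gave 8.06, 9.28 and 9.28 in p38α∆+TGF-β MSCs, against 8.69 and 9.34 in untreated p38α∆ MSCs. It gave 8.13, 9.15 and 8.70 in WT+TGF-β MSCs, against 8.44, 8.97, 8.78 and 8.84 in untreated WT MSCs. All 4 groups overlapped, and the 4 arrays numbered 1 were all below the other 8. The TGF-β difference was −0.19 in p38α∆ MSCs (95% interval −0.76 to 0.37, adjusted p = 0.796 in limma) and −0.07 in WT MSCs (interval −0.50 to 0.37, adjusted p = 0.917). Without the 4 arrays numbered 1 these differences were −0.01 in p38α∆ MSCs (adjusted p = 0.989) and 0.05 in WT MSCs (adjusted p = 0.921). A change of the size seen for Gadd45b or Gadd45g lies outside both intervals.

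**Figure D1:**
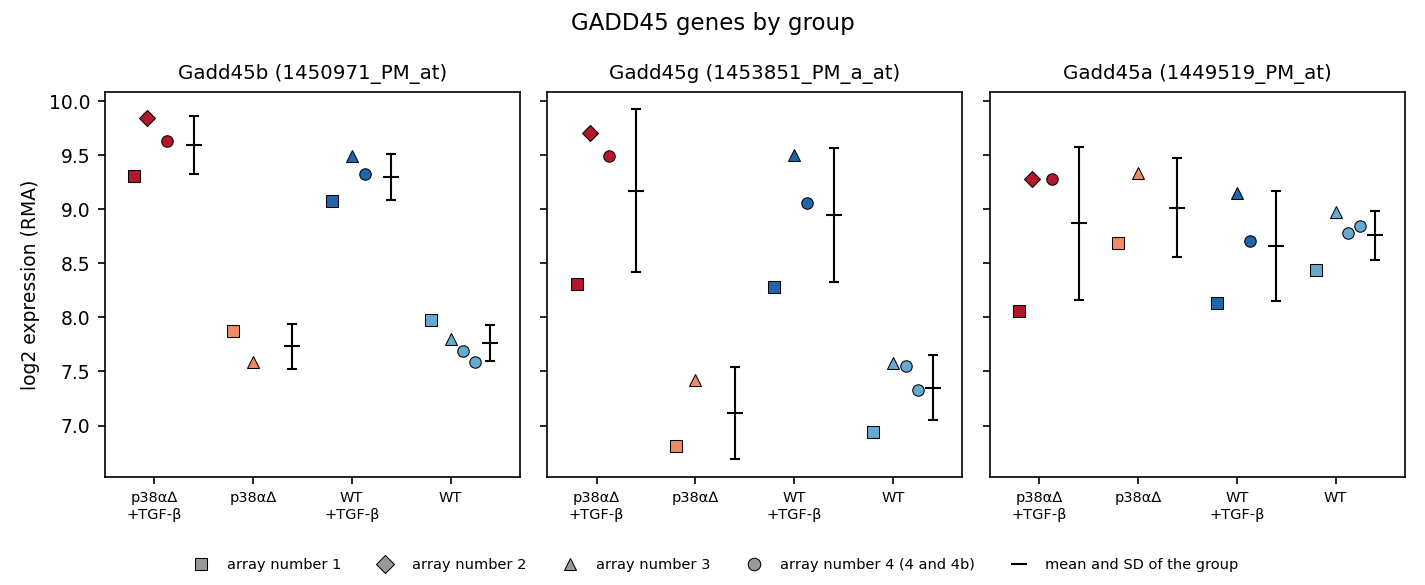
Log2 expression (vertical axis, RMA) of Gadd45b, Gadd45g and Gadd45a by group, drawn as 1 symbol for each array (the shape is the array number) with bars for each group's mean ± SD. For Gadd45b and Gadd45g the 6 treated arrays lie above the 6 untreated arrays, and for Gadd45a the groups overlap.

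Whether the TGF-β response of the GADD45 genes depends on p38α was asked with the difference between the responses (p38α∆ minus WT). It was 0.31 for Gadd45b (95% interval −0.19 to 0.81, adjusted p = 0.945 in limma), 0.34 for Gadd45g (−0.46 to 1.13, adjusted p = 0.948) and −0.13 for Gadd45a (−0.85 to 0.60, adjusted p = 0.978). Between p38α∆+TGF-β and WT+TGF-β MSCs, the differences were 0.26 for Gadd45b (−0.08 to 0.60, adjusted p = 0.846), 0.21 for Gadd45g (−0.32 to 0.75, adjusted p = 0.967) and 0.23 for Gadd45a (−0.27 to 0.72, adjusted p = 0.959). Without TGF-β, p38α∆ minus WT was −0.05 for Gadd45b (−0.40 to 0.31, adjusted p = 0.997), −0.12 for Gadd45g (−0.69 to 0.44, adjusted p = 0.991) and 0.35 for Gadd45a (−0.16 to 0.87, adjusted p = 0.987). None passed, and the widest interval, that of the Gadd45g response, reaches 1.13.

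The genes whose values ran most like those of Gadd45b over the 12 arrays were Tnfrsf12a, the receptor of the cytokine TWEAK (Pearson r = 0.994), Lif, a cytokine of the interleukin-6 family (0.993), and Rflnb, which binds filamin (0.991). For Gadd45g they were Pde7a, a cyclic AMP phosphodiesterase (0.990), Socs7, of the suppressor of cytokine signaling family (0.987), and Vhl, which targets hypoxia-inducible factors for degradation (0.985). Over the 8 arrays not numbered 1 these values were 0.998, 0.996 and 0.993 for Gadd45b and 0.988, 0.995 and 0.987 for Gadd45g. Gadd45b and Gadd45g correlated with each other at 0.922 over 12 arrays and at 0.997 over those 8. These values describe the likeness of 4 groups of arrays that share treatments and numbers, and carry no test.

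The transcripts of the kinases and of Tab1 changed little next to those of Gadd45b and Gadd45g, and none of their 17 probesets passed in any of the 5 comparisons. With TGF-β the fitted log2 differences ran from −0.34 to 0.48 in p38α∆ MSCs (median 0.16, 13 of 17 above 0) and from −0.20 to 0.63 in WT MSCs (median 0.21, 16 of 17 above 0). Over all probesets, the median was −0.01 in p38α∆ MSCs, with 48.7% above 0, and 0.00 in WT MSCs, with 50.1% above 0. An unadjusted p under 0.05 was found for 3 of 17 probesets in p38α∆ MSCs and 5 of 17 in WT MSCs, against 16.5% and 17% of all probesets for the same comparisons. The probesets of a gene are not independent of each other, and several share the target transcript.

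Mapk8 encodes JNK1 and Mapk9 encodes JNK2, the pair of JNKs made in most tissues. The leading probeset of Mapk8, the one with its highest mean, gave 7.01, 7.40 and 7.50 in p38α∆+TGF-β MSCs and 6.97 and 7.39 in untreated p38α∆ MSCs. It gave 6.94, 7.56 and 7.46 in WT+TGF-β MSCs, against 6.59, 7.15, 7.34 and 7.20 in untreated WT MSCs. The groups overlapped, with a difference with TGF-β of 0.08 in p38α∆ MSCs (95% interval −0.26 to 0.41, adjusted p = 0.874 in limma) and 0.29 in WT MSCs (0.03 to 0.54, adjusted p = 0.222). The other 3 probesets of Mapk8 gave 0.03 to 0.15 in p38α∆ MSCs and 0.15 to 0.30 in WT MSCs.

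The leading probeset of Mapk9 gave 8.24, 8.80 and 8.61 in p38α∆+TGF-β MSCs, 8.42 and 8.78 in p38α∆ MSCs, 8.37, 8.92 and 8.69 in WT+TGF-β MSCs, and 8.28, 8.75, 8.72 and 8.68 in WT MSCs. All 4 groups covered nearly the same range. The TGF-β difference was −0.07 in p38α∆ MSCs (−0.37 to 0.22, adjusted p = 0.856 in limma) and 0.07 in WT MSCs (−0.16 to 0.29, adjusted p = 0.82), and the other 2 probesets lay between −0.08 and −0.01 in p38α∆ MSCs and between 0.04 and 0.19 in WT MSCs.

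Map2k4 encodes MKK4, which phosphorylates the JNKs and can also phosphorylate p38. Its leading probeset gave 7.87, 8.21 and 8.18 in p38α∆+TGF-β MSCs against 7.47 and 7.90 in p38α∆ MSCs, and 7.82, 8.28 and 8.08 in WT+TGF-β MSCs against 7.34, 7.98, 7.97 and 7.98 in WT MSCs. Treated arrays tended to be the higher ones and overlapped with untreated arrays. The difference was 0.39 in p38α∆ MSCs (0.08 to 0.70, unadjusted p = 0.0178 and adjusted p = 0.17 in limma) and 0.27 in WT MSCs (0.03 to 0.50, adjusted p = 0.225). The second probeset gave 0.20 in p38α∆ MSCs and 0.10 in WT MSCs.

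Map3k7 encodes TAK1, the MAP3K nearest to the TGF-β receptors in this cascade, and had 5 probesets. Its leading probeset gave 6.88, 7.70 and 7.57 in p38α∆+TGF-β MSCs against 6.86 and 7.27 in p38α∆ MSCs, and 6.81, 7.85 and 7.38 in WT+TGF-β MSCs against 6.91, 7.50, 7.30 and 7.26 in WT MSCs. Within each group the array numbered 1 was the lowest, by more than any difference between the groups' means. The difference with TGF-β was 0.31 in p38α∆ MSCs (−0.13 to 0.76, adjusted p = 0.509 in limma) and 0.12 in WT MSCs (−0.22 to 0.46, adjusted p = 0.779).

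In WT MSCs, 2 other probesets of Map3k7 had the lowest adjusted p-values of the kinases. They gave 0.63 (1425795_PM_a_at, 95% interval 0.19 to 1.07, adjusted p = 0.104 in limma) and 0.51 (1426627_PM_at, 0.15 to 0.88, adjusted p = 0.109), and in p38α∆ MSCs 0.20 (−0.37 to 0.78) and 0.19 (−0.28 to 0.67). Both passed in WT MSCs when the array number was a fixed term of the model (0.65, adjusted p = 0.0177, and 0.52, adjusted p = 0.00716) and when only probesets with a mean above the median of all were tested (adjusted p = 0.0369 and 0.039). The remaining 2 probesets of the gene gave 0.24 and 0.23 in WT MSCs.

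Tab1 encodes a partner of TAK1 that also binds p38α and is phosphorylated by it. Its single probeset gave 5.57, 5.78 and 5.53 in p38α∆+TGF-β MSCs against 6.21 and 5.61 in p38α∆ MSCs, and 5.96, 5.48 and 5.64 in WT+TGF-β MSCs against 6.02, 5.89, 5.94 and 5.68 in WT MSCs. It was the single probeset of the 17 with a fitted difference below 0 in WT MSCs, and its groups overlapped. The difference was −0.34 in p38α∆ MSCs (−0.67 to −0.01, unadjusted p = 0.0428 and adjusted p = 0.28 in limma) and −0.20 in WT MSCs (−0.45 to 0.05, adjusted p = 0.439). The p38α∆ value rested on the arrays numbered 1: without them Tab1 gave 0.03 in p38α∆ MSCs (adjusted p = 0.948) and −0.28 in WT MSCs (adjusted p = 0.247).

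Map3k5 encodes ASK1, which can activate both JNK and p38. Its leading probeset ranged from 4.52 to 5.15 over the 12 arrays, with differences of 0.16 in p38α∆ MSCs (−0.13 to 0.46) and 0.19 in WT MSCs (−0.04 to 0.42). The second, lower probeset (mean 3.81, with 40.1% of all probesets below it) gave 4.00, 4.16 and 4.18 in p38α∆+TGF-β MSCs and 3.51 and 3.71 in p38α∆ MSCs, which did not overlap. That difference was 0.48 (0.10 to 0.86, adjusted p = 0.174 in limma), beside 0.34 in WT MSCs (0.05 to 0.64, adjusted p = 0.201), where the arrays overlapped.

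**Figure D2:**
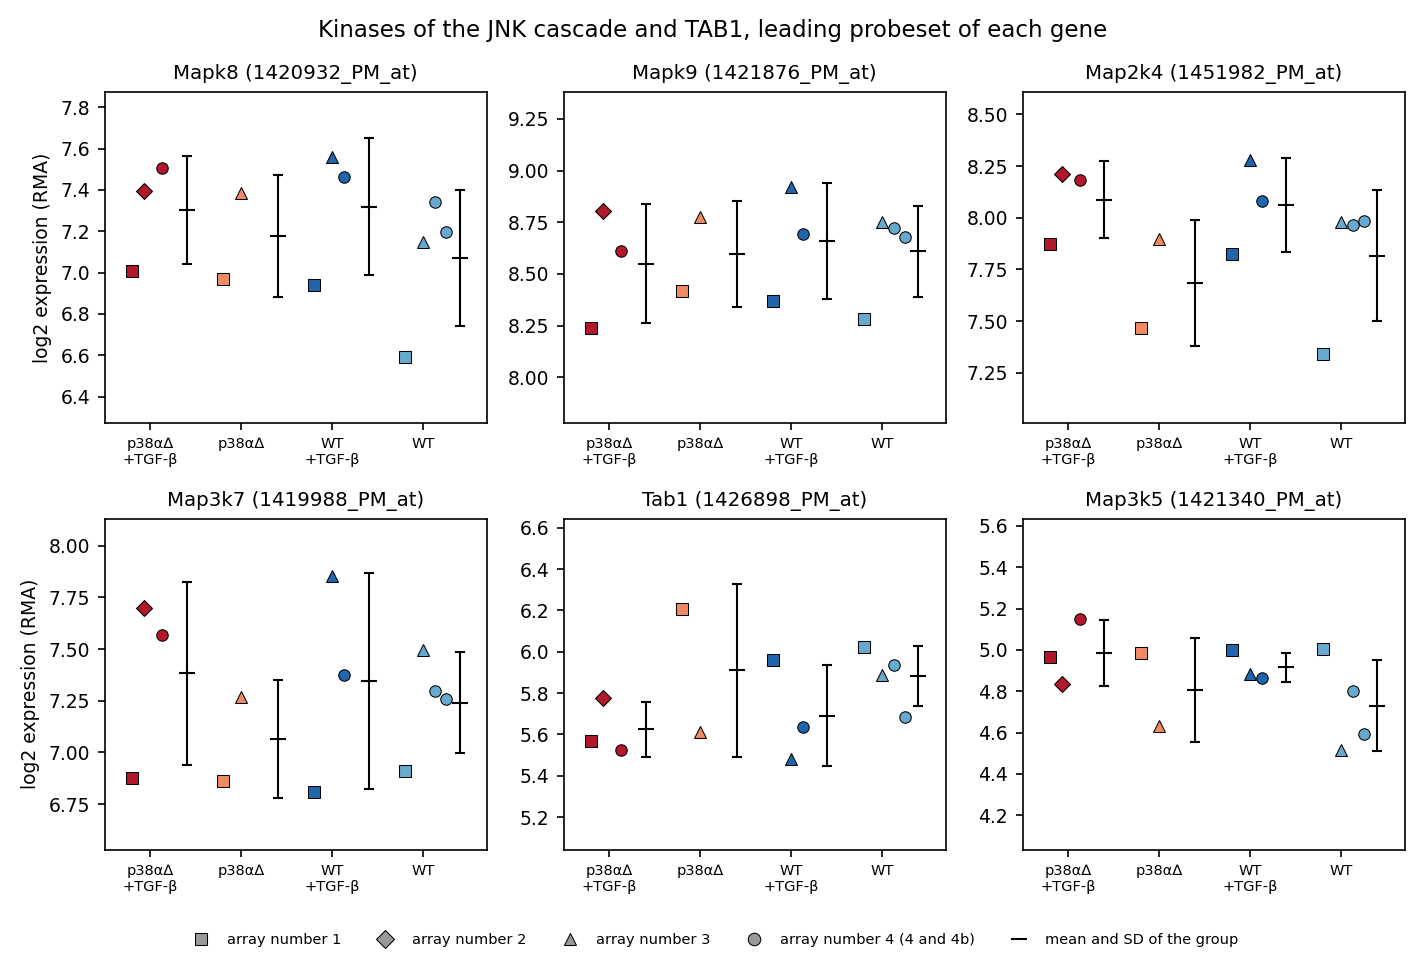
Log2 expression (vertical axis, RMA, with a range of its own in each panel) of the leading probeset of Mapk8, Mapk9, Map2k4, Map3k7, Tab1 and Map3k5 by group, drawn as 1 symbol for each array (the shape is the array number) with bars for each group's mean ± SD. The groups overlap in each panel, and for Mapk8, Mapk9, Map2k4 and Map3k7 the array numbered 1 is the lowest of each group.

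No member transcript differed detectably between p38α∆ and WT MSCs. Between p38α∆+TGF-β and WT+TGF-β MSCs, 0 of the 20 probesets passed, where 0.187% of all probesets did, and 0 of 20 had an unadjusted p under 0.05 in limma, where 7.06% of all did. The kinases and Tab1 differed by −0.25 to 0.21 (median −0.02, 8 of 17 above 0, adjusted p from 0.900 to 0.999), and their 95% intervals stayed within −0.76 to 0.54. Between untreated p38α∆ and WT MSCs 0 of 20 passed, and 0% of all probesets did, and 0 of 20 had an unadjusted p under 0.05, where 4.55% of all did. The kinases and Tab1 then differed by −0.13 to 0.26 (median 0.08, 12 of 17 above 0, adjusted p from 0.987 to 1), with intervals within −0.64 to 0.79. The differences between the 2 TGF-β responses were −0.43 to 0.19, with 0 of 20 called where 0.00666% of all probesets were, and 0 of 20 with an unadjusted p under 0.05, where 4.94% of all were. With 2 to 4 arrays a group, changes within these intervals are not excluded. The intervals are not adjusted for the number of probesets, so changes beyond them could also miss the threshold.

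**Figure D3:**
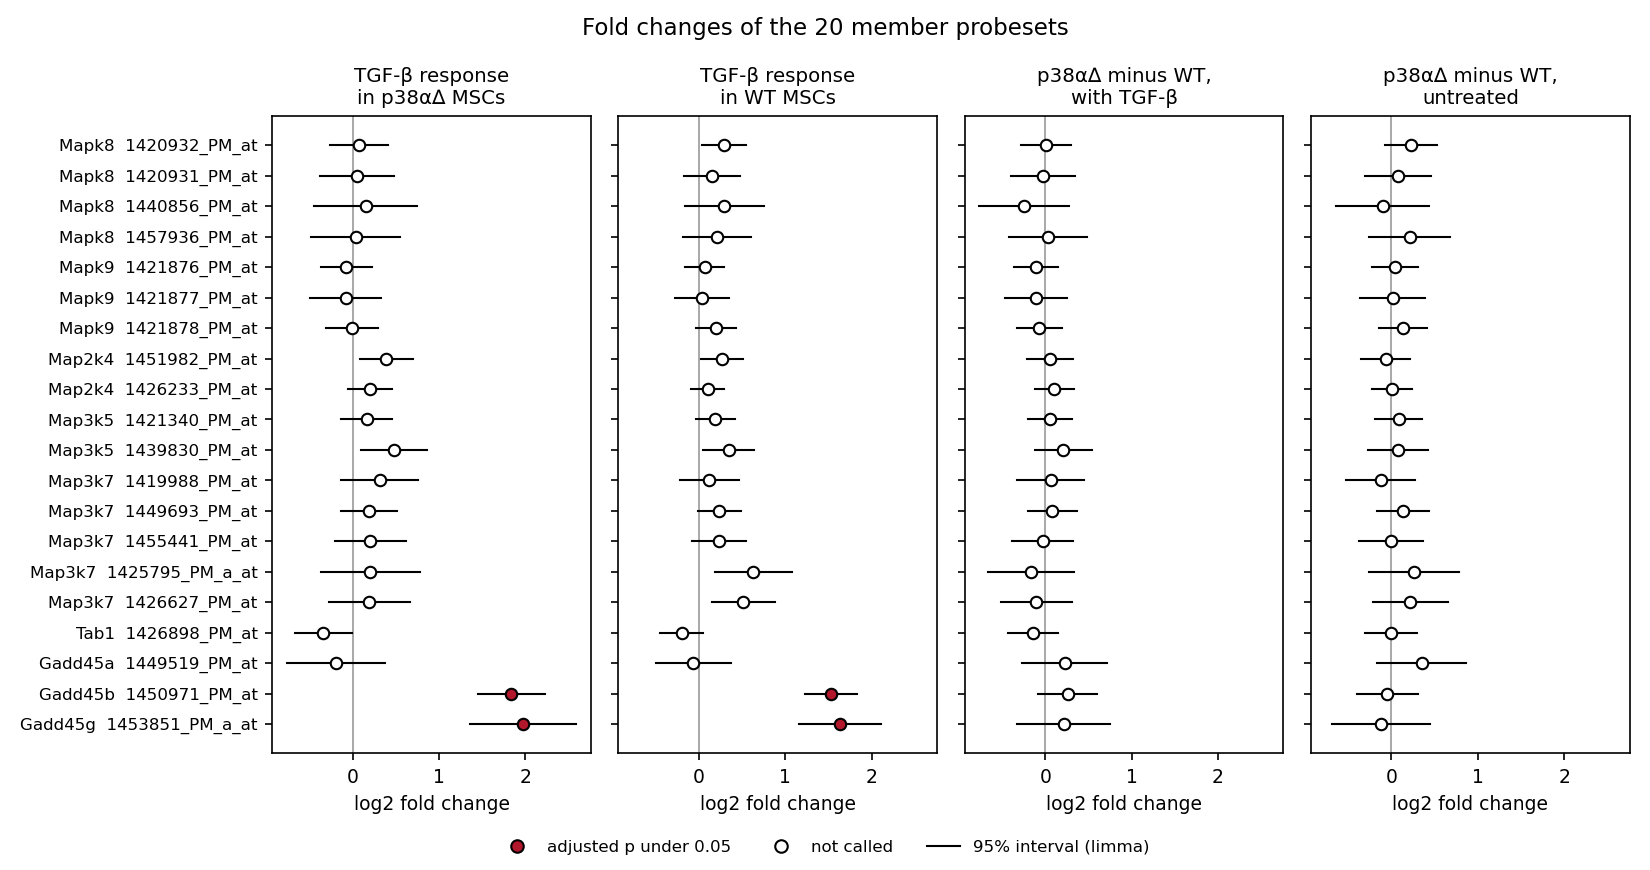
Log2 fold change (horizontal axis) of each of the 20 probesets (rows) in 4 comparisons, with its 95% interval from limma, and filled points where the adjusted p was under 0.05. Only Gadd45b and Gadd45g are filled, in the 2 TGF-β comparisons, and the intervals of both genotype comparisons include 0 for every probeset.

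For 11 of the 20 probesets (10 of the 17 of the kinases and Tab1) the 4 arrays numbered 1 were all below the other 8, and for 0 of 20 they were all above. Over all probesets, 10.5% had the 4 arrays below and 10% had them above. All 4 of these arrays were lowest for 3 of 4 probesets of Mapk8, 2 of 3 of Mapk9, both of Map2k4 and 3 of 5 of Map3k7, and for Gadd45a. The median difference, arrays numbered 1 minus the others, was −0.45 over the 20 probesets and 0.05 over all probesets, and the largest among these genes was −0.87 for Gadd45g. Tab1 (0.25) and the leading probeset of Map3k5 (0.20) had the opposite sign. The number holds 1 array of each group, and its part in the small TGF-β differences of the kinases was not tested beyond the fits. With those 4 arrays left out, 0 of 17 kinase and Tab1 probesets passed in WT MSCs, and Gadd45b (1.71) and Gadd45g (1.78) did. In p38α∆ MSCs, where untreated array 3 alone was then left, Gadd45b rose by 2.18 and Gadd45g by 2.23. The leading probesets of Mapk8, Mapk9, Map2k4, Map3k5 and Map3k7 then gave −0.05 (Mapk9) to 0.42 (Map3k7) in p38α∆ MSCs and 0.08 (Mapk9) to 0.28 (Mapk8) in WT MSCs.

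**Figure D4:**
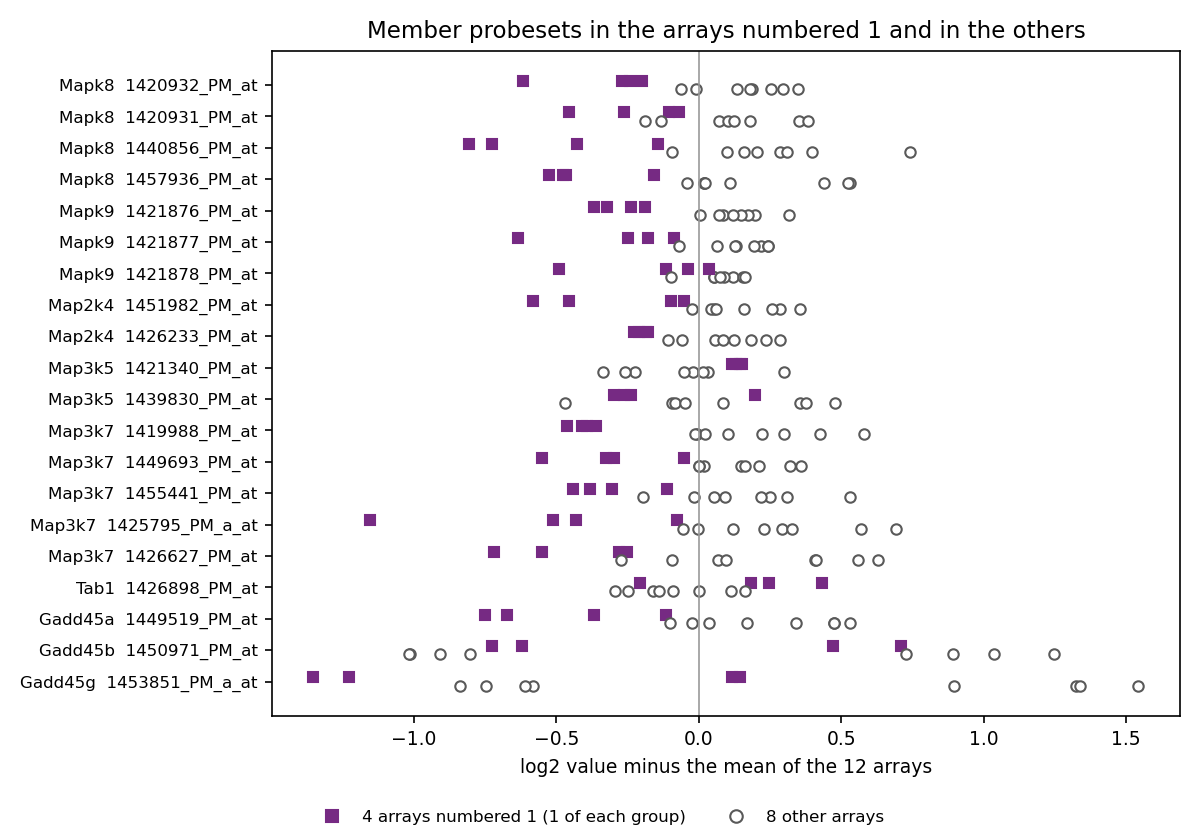
Log2 value minus the mean of the 12 arrays (horizontal axis) for each of the 20 probesets (rows), with filled squares for the 4 arrays numbered 1 and open circles for the other 8. The squares lie to the left of all circles for 11 probesets and to the right of all circles for none.

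A list of 76 other genes of the JNK pathway and partners of GADD45 was drawn up with earlier results of these data known. The shares of it that passed are therefore a description and no test. Of the 76, 69 were measured by 156 probesets. Between p38α∆+TGF-β and WT+TGF-β MSCs, 8 of these probesets (5.13%) from 5 genes were higher and 0 were lower, where 0.164% of all probesets were higher and 0.0222% lower. This count fell to 2 with the array number as a fixed term, to 3 without the number or without the arrays numbered 1, and to 2 when WT+TGF-β array 1 or p38α∆+TGF-β array 4 was left out, and ranged from 2 to 9 with 1 array left out. Calls over all probesets fell too, from 84 to 13 with the number as a fixed term and 19 without the number. They fell to 11 without WT+TGF-β array 1 and to 8 without p38α∆+TGF-β array 4. In p38α∆ MSCs with TGF-β 12 of the 156 were higher and 12 lower, and in WT MSCs 8 were higher and 14 lower, where 2.43% and 2.78% of all probesets were higher and lower in p38α∆ MSCs and 2.94% and 3.06% in WT MSCs. The genes with a higher probeset were Dusp8, Jun, Junb, Jund, Map3k4, Nfatc2 and Sh3rf1 in p38α∆ MSCs and Dusp8, Jun, Nfatc2, Sh3rf1 and Tdg in WT MSCs. Those with a lower probeset were Bcl2l11, Bmf, Cdkn1a, Ddit3, Smad3 and Tab2 in p38α∆ MSCs and Bcl2l11, Bmf, Cdkn1a, Ddit3, Mapk8ip1, Smad3 and Stmn1 in WT MSCs. Untreated p38α∆ and WT MSCs differed at 0 of the 156.

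Map3k4, the MAP3K that GADD45 proteins bind, was the single other MAP3K or MAP4K of 18 measured to pass. It gave 7.65, 7.73 and 7.54 in p38α∆+TGF-β MSCs, 7.10 and 6.98 in p38α∆ MSCs, 7.01, 6.92 and 6.96 in WT+TGF-β MSCs, and 7.09, 6.82, 6.77 and 6.93 in WT MSCs. The 3 p38α∆+TGF-β arrays lay above the other 9, which overlapped. The difference from WT+TGF-β MSCs was 0.65 (SE 0.08, 1.56-fold, adjusted p = 0.0119 in limma), and the second probeset gave 0.52 (adjusted p = 0.0278). Within numbers 1 and 4 the leading probeset differed by 0.64 and 0.59. The call depended on the arrays' number: it was lost without it (0.68, adjusted p = 0.0559), with it as a fixed term (0.61, adjusted p = 0.0984) and without the arrays numbered 1 (0.69, adjusted p = 0.0786). It was also lost without WT+TGF-β array 1 or 4 or p38α∆+TGF-β array 4 (0.63 to 0.66, adjusted p from 0.0703 to 0.0903).

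Jun, the substrate that gives JNK its name, gave 8.06, 8.48 and 8.38 in p38α∆+TGF-β MSCs against 7.33, 7.28 and 7.57 in WT+TGF-β MSCs, and 6.39 and 6.74 in p38α∆ MSCs against 6.57, 6.74, 6.60 and 6.61 in WT MSCs. The 2 treated groups did not overlap and the 2 untreated groups did. The treated groups differed by 0.89 (SE 0.11, 1.85-fold, adjusted p = 0.0122 in limma), and the difference between the TGF-β responses, 0.91, did not pass (adjusted p = 0.487). Within numbers 1 and 4 the treated groups differed by 0.72 and 0.81. Jund, another AP-1 member, differed by 0.68 (adjusted p = 0.0299) between the treated groups, while its other probeset gave −0.16 (adjusted p = 0.931). Junb differed by 0.29 (adjusted p = 0.897). Jun passed in 19 of 23 other settings, at 0.81 to 1.00 over all of them. Its call was lost without the array number (0.91, adjusted p = 0.0649), with it as a fixed term (0.85, adjusted p = 0.0778), and without WT+TGF-β array 1 (0.91, adjusted p = 0.0902) or p38α∆+TGF-β array 4 (0.85, adjusted p = 0.122), and held without the arrays numbered 1 (1.00, adjusted p = 0.0432). Jund passed in 9 of 23 (0.26 to 0.80, adjusted p up to 0.415), and was lost without the number (0.70, adjusted p = 0.211), with it as a fixed term (0.67, adjusted p = 0.103), without the arrays numbered 1 (0.80, adjusted p = 0.111), and without any 1 of the 6 treated arrays, either p38α∆ array or WT array 3 (0.60 to 0.77, adjusted p from 0.0571 to 0.196).

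Dusp8 and Dusp10 encode phosphatases that act on JNK and p38. Dusp8 had 3 probesets, and the one of highest mean, 1447346_PM_s_at, did not pass between the treated groups (0.18, adjusted p = 0.917 in limma). The next, 1418714_PM_at, gave 6.04, 6.10 and 6.10 in p38α∆+TGF-β MSCs against 4.39, 4.35 and 4.59 in WT+TGF-β MSCs, and 4.38 and 4.42 in p38α∆ MSCs against 3.89, 4.35, 4.29 and 4.36 in WT MSCs. The 3 p38α∆+TGF-β arrays stood alone, 1.64 above WT+TGF-β (SE 0.10, 3.11-fold, adjusted p = 0.000195 in limma), and the lowest of the 3, 1428864_PM_at, gave 1.56 (adjusted p = 0.00323). Within numbers 1 and 4 the difference of 1418714_PM_at was 1.65 and 1.51, and without the arrays numbered 1 it was 1.63 (adjusted p = 0.00847). Its difference between the TGF-β responses was 1.40 and passed (adjusted p = 0.0451), but did so in only 5 of 22 other settings. Between the treated groups Dusp8 passed in 22 of 23 other settings, at 0.18 to 1.70 over all of them (adjusted p up to 0.837 in limma). The lowest value came where each gene was taken at its most variable probeset. Dusp10 differed by 0.74 between the treated groups (SE 0.11, adjusted p = 0.0278), and its second probeset by 0.45 (adjusted p = 0.142). Dusp10 passed in 14 of 23 other settings, at 0.59 to 0.84 over all of them. Its call was lost without the array number (0.75, adjusted p = 0.062), with it as a fixed term (0.72, adjusted p = 0.121), without the arrays numbered 1 (0.82, adjusted p = 0.117), and without WT array 3 or any 1 of the treated arrays other than p38α∆+TGF-β array 1 (0.65 to 0.76, adjusted p from 0.0643 to 0.196).

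**Figure D5:**
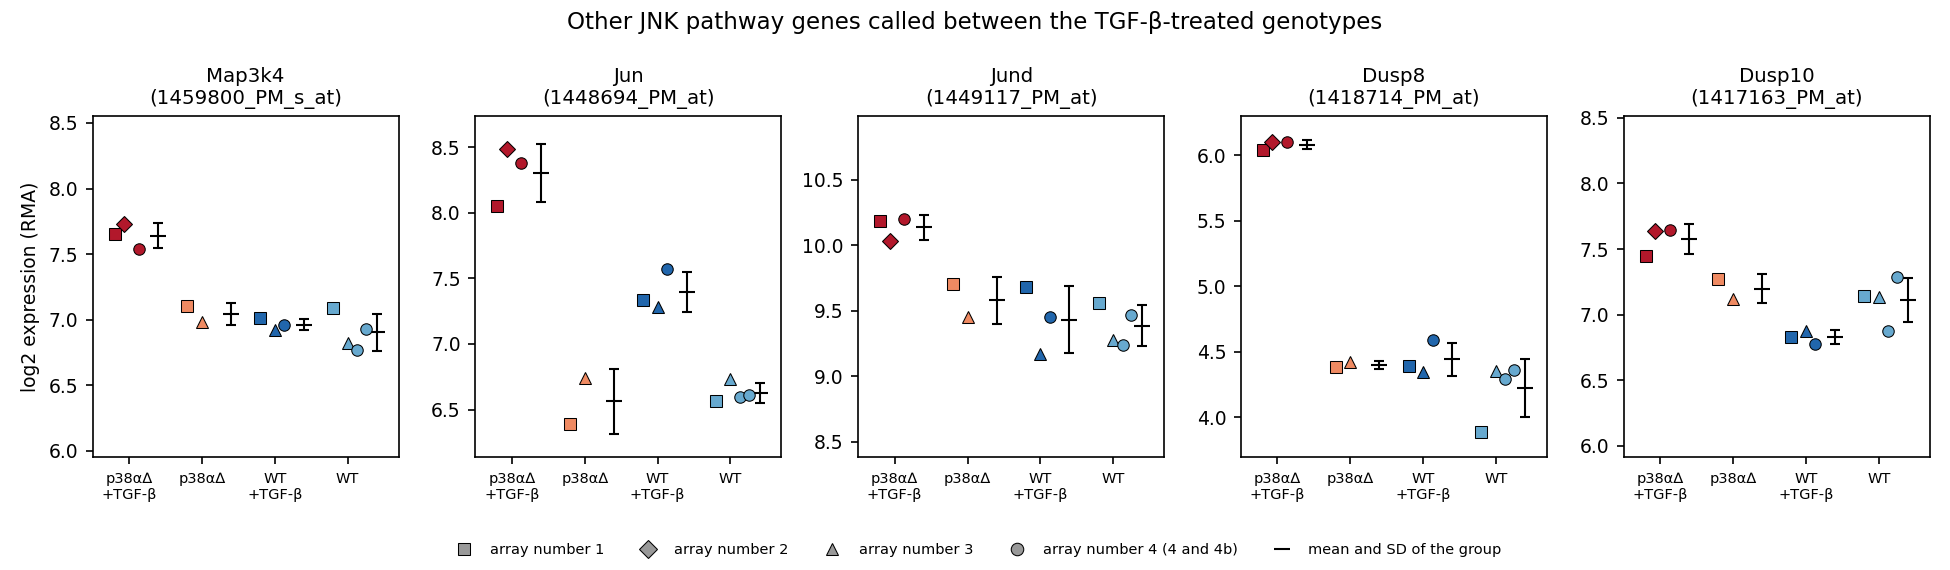
Log2 expression (vertical axis, RMA, with a range of its own in each panel) of Map3k4, Jun, Jund, Dusp8 and Dusp10 (for each, its called probeset of highest mean), the genes of the list of other JNK pathway genes that passed between the treated genotypes, by group, drawn as 1 symbol for each array (the shape is the array number) with bars for each group's mean ± SD. In each panel the 3 p38α∆+TGF-β arrays lie above the 3 WT+TGF-β arrays.

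Several partners and substrates fell with TGF-β in both genotypes. Smad3, a receptor-activated Smad that JNK can phosphorylate, fell at its 3 probesets, by 0.86 at the leading one in p38α∆ MSCs (adjusted p = 0.000858 in limma) and by 0.81 in WT MSCs (adjusted p = 0.000167). Bcl2l11, which encodes the pro-apoptotic protein BIM, fell at its leading probeset by 1.33 in p38α∆ MSCs (adjusted p = 0.00218) and by 0.88 in WT MSCs (adjusted p = 0.00465). Its probesets 1435448_PM_at (1.21 and 0.90) and 1435449_PM_at (1.19 and 0.70) fell in the same order, and 1426334_PM_a_at in the reverse (0.64 and 0.86). Its probeset 1456006_PM_at did not pass in either (−0.23 and −0.18). Cdkn1a, which encodes p21, a binding partner of GADD45 proteins, fell by 1.01 in p38α∆ MSCs (adjusted p = 0.00222) and by 0.58 in WT MSCs (adjusted p = 0.0109). Ddit3, a transcription factor of the stress response also known as GADD153, fell by 1.07 in p38α∆ MSCs (adjusted p = 0.00909) and by 0.65 in WT MSCs (adjusted p = 0.029). The difference between the TGF-β responses of the genotypes did not pass for Smad3, Bcl2l11, Cdkn1a or Ddit3. Without the array number in the fit, Bcl2l11 and Ddit3 missed the threshold in p38α∆ MSCs (−1.18, adjusted p = 0.0847, and −1.05, adjusted p = 0.0514) and in WT MSCs (−0.95, adjusted p = 0.105, and −0.66, adjusted p = 0.182). Without the arrays numbered 1, Cdkn1a missed it in WT MSCs (−0.53, adjusted p = 0.093). In p38α∆ MSCs, where untreated array 3 alone was then left, Cdkn1a gave −0.80 and Smad3 −0.75, and calls of that fit carry little weight. Each of these 2 genes passed in 21 of 22 other settings in p38α∆ MSCs. With 1 array left out, Cdkn1a was lost in WT MSCs without WT array 3 or WT+TGF-β array 1 or 3 (−0.48 to −0.54, adjusted p from 0.054 to 0.0646). Ddit3 was lost in WT MSCs without WT array 1 or 3 or WT+TGF-β array 1 or 4 (−0.54 to −0.65, adjusted p from 0.0964 to 0.157). In p38α∆ MSCs without p38α∆ array 1, which again leaves untreated array 3 alone, Ddit3 gave −0.93, and calls of that fit carry little weight. Ddit3 passed in 20 of 22 other settings in p38α∆ MSCs. Tab2, the sister of Tab1, passed at 1 of 2 probesets in p38α∆ MSCs (−0.60, adjusted p = 0.0325, and in 11 of 22 other settings) and gave −0.29 in WT MSCs (adjusted p = 0.19), and the difference between these responses, −0.31, did not pass (adjusted p = 0.945).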

How the data were processed

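RNA of MSCs was amplified and hybridized to Affymetrix MG-430 PM arrays by the authors. The deposited values are log2 expression values, 1 per probeset and array, made by the authors with RMA (background correction, normalization between arrays, summary of probes); they were used without further scaling. RMA pulls arrays to a common distribution, so a shift of all transcripts would not be seen, and low probesets understate fold changes. Arrays carry no read depth, and their number limits the precision.

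After 64 control probesets were left out, 45037 were tested, of which 28898 had 1 gene symbol in the platform annotation, 551 several and 15588 none listed. Groups came from the arrays' titles. limma 3.58.1 (R 4.3.3) fitted the 4 group means to all 12 arrays, with the array number as a random block (duplicateCorrelation, 0.46) and 4b counted with number 4. The authors' methods adjust for scanning batch, which is not given in the sources used here; the number is the nearest label. The 14 pairs of arrays of the same number deviated together from their group means (r from 0.113 to 0.837), which was taken as pairing them. Pairs of number 4 reached at most 0.387. Among arrays not numbered 1, pairs of different numbers ran from −0.170 (WT 3 with WT+TGF-β 4) to 0.736 (p38α∆+TGF-β 2 with WT+TGF-β 3). Pairs of an array numbered 1 with one of another number were all negative. Deviations within a group sum to 0, which partly fixes the signs of all these values. The 2 untreated p38α∆ arrays are mirror images for this reason. The values do not separate pairing by number from the split between the arrays numbered 1 and the others. WT arrays 4 and 4b correlated at 0.9973, WT 3 and 4 at 0.9971 and WT 3 and 4b at 0.9967, and 4b was kept as an array. Arrays 4 and 4b were the closest of these pairs (SD of the difference 0.158, against 0.165 and 0.176). Whether 4b repeats 4 cannot be told from these values. P-values are two-sided and adjusted by the Benjamini-Hochberg method over all probesets, with a threshold of 0.05. The procedure was run on simulated data that had the same block by array number, for TGF-β in WT MSCs only. That run does not check the split of the arrays numbered 1 or the p38α∆ comparisons.

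The members, the pathway and marker lists and the motifs were chosen with earlier results of these data known. All member genes are named; of the pathway list, genes with a called probeset may be; for likeness, the 3 genes of highest Pearson r. The leading probeset has the highest mean. Promoter windows are from RefSeq (9 of 10 genes had one). Alternatives are listed in the closing section.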

Additional observations from a re-analysis of the deposited data

Results flagged for a closer look

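In untreated WT MSCs, the group of 4 arrays, array 1 lay far below the other 3 for 5 of the 20 probesets, with a gap to the nearest array that took up most of the group's range (Dixon's 95% value). Chance flags about 1 in 20 such groups. Over all 45037 probesets, 11.3% had such an array among the 4, and for 4.81% it was array 1, far below. These were Mapk8 (1457936_PM_at, 3.86 in array 1 against 4.35 in each of the others), Mapk9 (1421876_PM_at, 8.28 against 8.68 to 8.75), Map2k4 (1451982_PM_at, 7.34 against 7.97 to 7.98) and Map3k7 (1449693_PM_at, 6.65 against 7.20 to 7.22, and 1425795_PM_a_at, 4.86 against 5.96 to 6.14). All 5 were of the array numbered 1. Without that array, as with it, Gadd45b and Gadd45g were the member probesets called with TGF-β in WT MSCs. The cause was not tested.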

How the results depend on the processing

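The results were recomputed under 23 alternatives, 12 of them leaving out 1 array; averaging WT arrays 4 and 4b, and every alternative for the pathway list, were chosen after seeing the data. Using only the arrays of the groups compared could not be fitted with the replicate block for TGF-β in p38α∆ MSCs. Gadd45b passed with TGF-β in all 22 alternatives in p38α∆ MSCs (1.65 to 2.18) and all 23 in WT MSCs (1.43 to 1.71), and Gadd45g in all 22 (1.82 to 2.36) and 22 of 23 (1.46 to 1.78). No called value changed sign. Leaving out the arrays numbered 1, or either p38α∆ array, left 1 untreated p38α∆ array. The p38α∆ calls of those fits, passed or missed, are in these counts and carry little weight. Of the 20 member probesets, TGF-β called 2 in WT MSCs, but 1 with no replicate block and 4 with the replicate block as a fixed term or with only probesets above the median. Calls over all probesets moved with them, from 2704 to 994, 3011 and 3229 in these settings. Leaving out 1 array gave 2 in both genotypes and 0 in both genotype comparisons and in the response difference.

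Counts of the pathway list moved too, as did calls over all probesets. For TGF-β in WT MSCs it was 22 (8 with no replicate block, 13 without the arrays numbered 1, 10 genes by the most variable probeset, 12 by the mean, and 10 to 25 with 1 array left out). For TGF-β in p38α∆ MSCs it was 24 (12 and 15 genes by these rules, and 14 to 25). For p38α∆+TGF-β against WT+TGF-β MSCs it was 8 (3 with no replicate block, 2 with the replicate block as a fixed term, 3 without the arrays numbered 1, 4 and 5 genes, and 2 to 9; 2 without WT+TGF-β array 1 or p38α∆+TGF-β array 4, 4 without p38α∆+TGF-β array 2 or WT+TGF-β array 4, and 5 without WT or WT+TGF-β array 3). Calls over all probesets in that comparison fell as well, from 84 to 19 with no replicate block and 13 with it as a fixed term. For TGF-β in WT MSCs they fell from 2704 to 994 with no replicate block and 2168 without the arrays numbered 1. With 1 array left out they ran from 1541 to 3133. By the most variable probeset and by the mean, 1681 and 1804 genes were called there. For TGF-β in p38α∆ MSCs it was 2347 probesets, and 1423 and 1591 genes by these rules. Jund passed in 9 of 23 alternatives, Dusp10 in 14, Map3k4 in 17, Jun in 19 and Dusp8 in 22. For the response difference it was 1, Dusp8 (0 under each of those settings and with 4 and 4b averaged, and 0 to 1 with 1 array left out). Otherwise, the block changed no call of a member gene other than Gadd45g and Map3k7. The causes were not tested.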
